A study of Bombyx mori with 4 samples.

Results

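The regions described here are stretches of silkworm chromatin called open in both fat body libraries and in neither brain library. ATAC-seq, in which a transposase cuts and tags accessible DNA, had been run on nuclei of larval brain and larval fat body of wild-type Bombyx mori, strain P50, all labelled L5D3, with 2 libraries per tissue, numbered as replicates (brain 1 and 2, fat body 1 and 2 hereafter). Joining every set of peaks from the 4 deposited lists that shared 1 bp or more gave 130309 regions. Of these, 2013 (1.54%) held peaks of both fat body lists and of no brain list, and they are called fat-body-only regions. They were chosen by presence or absence of a called peak in each of the 4 lists, so that share is a description and carries no test. The labels do not say how many animals went into a library, nor if replicates came from separate dissections, so the spread between replicates may be technical.

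In insects the fat body combines tasks that vertebrates divide between liver and adipose tissue: it holds the larva's energy reserves and makes most of the proteins found in haemolymph. Sites that are accessible in a single tissue are often enhancers or tissue-restricted promoters, and an active site is commonly flanked by positioned nucleosomes, so that its open stretch is short. Promoters of genes that every cell uses tend to be open in all tissues. The lists name no genes, and genes, promoters, motifs and base sequences of these regions were not analysed here. Tissue identity could therefore not be checked against marker genes.

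The lists differ in ways that bear on the fat-body-only regions. Fat body 1 had 107057 peaks, mostly short (median 166 bp), and fat body 2 had 14752, mostly longer (median 637 bp). The brain lists held 36420 and 11572 peaks. Fat body 2 had no peak under a −log10 q of 5.04, while the lowest −log10 q of the other lists lay between 3.18 and 3.69. Its peak names also carry a mapping quality of 20 and the removal of duplicates, which the other names do not state. Peak names of brain 1 carry another stage code (5L-4D) than its label. The count of regions and the main shares and distances are therefore also given without brain 1. Rates around summits, presence by strength class, chains, named regions and counts per Mb are given only with brain 1 as an absence control. A peak list records no reads outside its peaks. Absence from brain therefore means that no peak was called there, and a region below the calling threshold in brain cannot be told apart from a closed one. With 2 libraries against 2, only 3 splits into pairs exist, so no test over libraries was made. Intervals in brackets after a share are exact binomial (Clopper-Pearson) 95% intervals, and those after a median are order-statistic 95% intervals. Both are taken over regions, which are not replicates.

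The fat-body-only regions fell into 2 kinds by the width of their fat body 2 peak. Widths piled up between 200 and 300 bp, with 570 regions, and again between 800 and 1000 bp, with 260 and 421 regions per 100 bp, and they were scarce between, with 72 regions from 500 to 600 bp and 67 from 600 to 700 bp. The shortest fat body 2 peak had 212 bp, both here and among regions of fat body 2 alone, while fat body 1 peaks went down to 94 bp. The group of short peaks thus begins at the shortest width seen in fat body 2, and shorter sites may be missing from it. Regions whose strongest fat body 2 peak was at most 500 bp wide are called narrow and the others broad, a limit chosen after the widths were seen. There were 837 narrow regions (41.6%, 39.4 to 43.8) and 1176 broad ones. Fat body 2 is also the list with the other threshold and peak names, so the kinds describe peaks as called in that list, and whether peaks near 950 bp can be compared in extent with those of the other lists is not known. The limit ran through 100 regions of 400 to 500 bp on one side and the 72 on the other. Median region width was 356 bp for the narrow kind and 957 bp for the broad kind, against 792 bp for all of them, a width that few of the regions had.

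**Figure D1:**
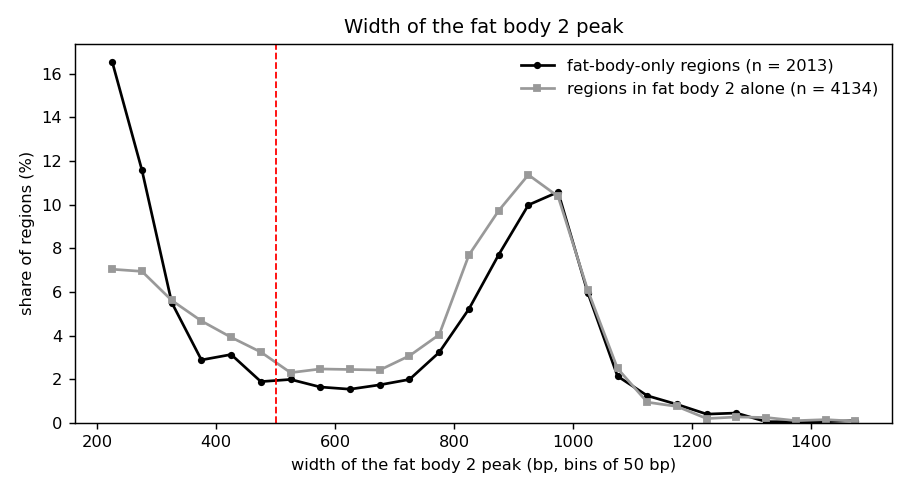
Share of regions (y axis, %) by width of the fat body 2 peak (x axis, bp) for the 2013 fat-body-only regions (black) and the 4134 regions of fat body 2 alone (grey). The dashed line marks 500 bp, and both curves have a group of short peaks to its left and a group near 950 bp to its right, with peaks of 1500 bp or more not drawn.

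The broad kind was not particular to regions that both fat body libraries shared. Among the 4134 regions found in fat body 2 alone, 31.5% (30.1 to 32.9) were narrow. Among the regions present in all 4 lists, which number 1075, 72.2% (69.4 to 74.8) had a narrow fat body 2 peak. Among the 4677 regions held by the second replicates of both tissues and by no other list, the share was 31.8% (30.4 to 33.1). By this measure the fat-body-only regions, at 41.6%, lay between the regions of fat body 2 alone and those open in every library.

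The kinds differed in fat body 1 strength far more than in fat body 2 strength. The fold enrichment that the authors' peak caller gave at the summit of the fat body 1 peak had a median of 9.62 in narrow regions (10th to 90th percentile 3.21 to 20.3) and of 3.82 in broad ones (2.91 to 6.24). In fat body 2 the median was 7.34 for the narrow kind and 8.26 for the broad kind. Ranked by −log10 q within its own list, the median fat body 1 peak of a narrow region stood at percentile 95.9 and that of a broad region at percentile 45.5. The corresponding fat body 2 percentiles were 43.6 and 45.7. A narrow region thus usually had a fat body 1 peak among the strongest of a very long list, while the fat body 1 peak of a broad region was an ordinary one. Fold and −log10 q belong to 1 library each and rank peaks only within it.

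The best 10% of the fat body 1 list supplied the peak of 502 narrow regions, or 60.0% (56.6 to 63.3), and of 66 broad regions, or 5.61% (4.37 to 7.09). In those 502 regions the median fold was 14.1 (fat body 1) and 8.68 (fat body 2). The other 335 narrow regions had 3.75 and 5.58. Splitting by rank in fat body 1 fixes that these have the lower fat body 1 fold, and their fat body 2 fold was lower as well. Across narrow regions the fold of fat body 1 and that of fat body 2 had a Spearman rho of 0.692 (n = 837 regions), and across broad regions 0.174 (n = 1176). These are descriptions over regions, which share libraries and, within a region, the underlying sequence.

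**Figure D2:**
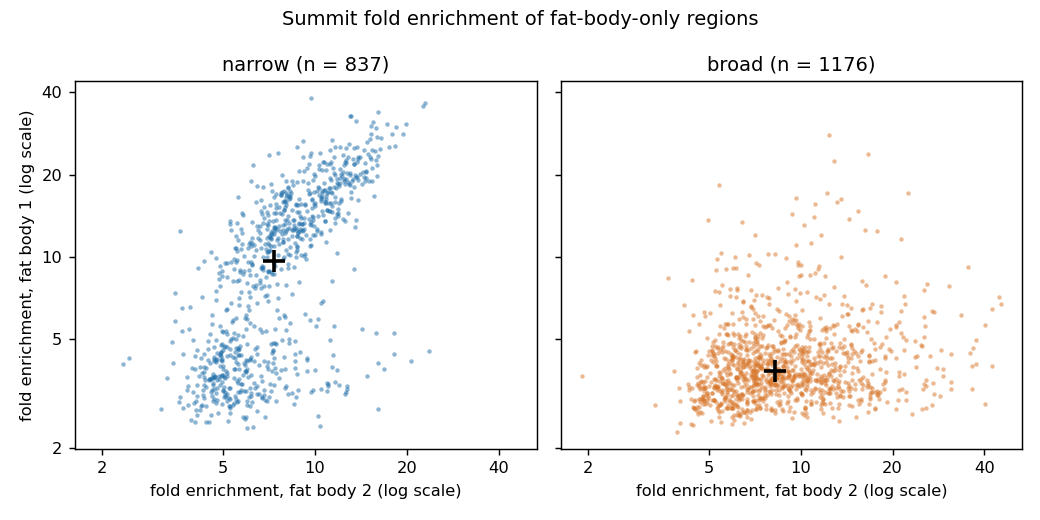
Fold enrichment at the summit in fat body 1 (y axis) against fat body 2 (x axis), both on log scales, for narrow (left) and broad (right) fat-body-only regions, 1 point per region, with the medians as a cross. Narrow regions hold a band in which both folds rise together and further points near a fat body 1 fold of 4, and broad regions lie mostly at the lower level whatever their fat body 2 fold.

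Read support at the fat body 1 summits followed the same order as fold. Fold and −log10 p of a peak together fix a whole number of reads piled up at its summit, found for every fat-body-only peak searched (1882 of fat body 1 and 1985 of fat body 2). The median pile-up in fat body 1 was 90 reads over 712 narrow regions and 35 over 1170 broad ones. In fat body 2, where the narrow kind had the lower median fold, it was 40 reads over 837 narrow and 38 over 1148 broad regions. Peaks with a −log10 p of 250 or more were not searched. This left out the strongest fat body 1 peaks, 125 in narrow and 6 in broad regions, so the narrow median of fat body 1 is an underestimate. It also left out 28 fat body 2 peaks, all in broad regions, so the broad median of fat body 2 is an underestimate. The weakest fat body 1 summit rested on 13 reads and the weakest fat body 2 summit on 9.

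Summits of the fat body libraries lay close together in the narrow regions and far less so in the broad ones. The distance between the strongest summits had a median of 40 bp in narrow and 142 bp in broad regions. It was at most 100 bp in 649 of 837 narrow regions (77.5%, 74.6 to 80.3) and in 476 of 1176 broad regions (40.5%, 37.7 to 43.3). The same base was the summit in both libraries in 64 narrow and 8 broad regions. Where the fat body 1 peak belonged to the best 10% of its list, the share within 100 bp was 95.4% in narrow and 77.3% in broad regions. Where it did not, the shares were 50.7% and 38.3%. A wide peak leaves more room for distant summits, so part of this difference is fixed by the widths that defined the kinds.

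How the peaks lay on each other differed as well. Of the narrow regions, 488 (58.3%) had a fat body 2 peak lying wholly within the fat body 1 peak, and peaks of fat body 1 covered a median of 100% of the region. In 723 broad regions (61.5%) the fat body 1 peak lay wholly within the fat body 2 peak, and fat body 1 covered a median of 20.7% of the region. The kinds were defined by the width of the fat body 2 peak, so part of this nesting and coverage is fixed by the definition. The median fat body 1 peak was 300 bp wide in narrow regions and 175 bp in broad ones, the latter close to the 166 bp of the whole list. With every fat body 2 peak divided along its length into 10 bins, those of broad regions held between 84 and 110 fat body 1 summits per bin, with 205 summits outside it. In narrow regions the bins held between 26 and 138, with the highest counts in the middle.

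The contrast between the kinds was not particular to regions that brain lacks. Among the 3573 regions that both fat body lists share with at least 1 brain list, summits lay within 100 bp in 76.6% (74.5 to 78.5) of the narrow and 37.6% (35.4 to 39.9) of the broad ones. The median fat body 1 fold there was 13.1 in narrow and 4.00 in broad regions. Both orders were those of the fat-body-only regions.

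The fat-body-only regions were picked because fat body 1 had a peak there. To count fat body 1 peaks at fat body 2 peaks without that choice, all 6147 regions of fat body 2 that both brain lists lacked were taken, whether or not fat body 1 was present. Fat body 1 was present in 32.7% of them, in 39.1% of the 2138 with a narrow and 29.3% of the 4009 with a broad fat body 2 peak. Inside narrow peaks on the long sequences there were 1.12 fat body 1 summits per kb, against 0.220 per kb in flanks 1 to 5 kb away, a ratio of 5.09. Inside broad peaks there were 0.310 per kb against 0.226 per kb in the flanks, a ratio of 1.37. Over all long sequences the rate was 0.240 per kb. Restricted to the best 10% of fat body 1 peaks, the ratio was 23.6 for narrow and 0.887 for broad peaks. These flanks can hold regions that brain shares, while the peaks themselves were picked for lacking brain, which lowers all 4 ratios. With flanks counted outside every region that holds a brain peak, a comparison added after the values were seen, the ratios were 6.25 for narrow and 1.66 for broad peaks over all fat body 1 peaks. For the best 10% they were 44.8 and 1.70, so the broad value lay below 1 or above it with the choice of flanks. Fat body 1 summits were denser in fat body 2 peaks of both kinds than in the flanks without brain regions, and by a larger factor in the narrow kind.

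Within broad peaks the rate was highest at the summit. In the 100 bp before and after the fat body 2 summit the rate was 0.686 and 0.599 per kb for broad peaks and 1.48 and 1.60 per kb for narrow ones. From 300 to 400 bp after the summit it was 0.202 per kb for broad and 0.213 for narrow peaks, both under the rate of all long sequences. Both also lay under the flank rates counted in the same way, 0.226 per kb for broad and 0.220 for narrow peaks. Flanks without brain regions had 0.187 and 0.180 per kb. The bins around the summit were not cleared of brain regions, so they cannot be set against those rates. Before the broad summit the rate was 0.168 per kb at 300 to 400 bp and 0.245 at 400 to 500 bp. These lie on either side of the broad flank rate counted in the same way, 0.226. What gives fat body 2 its broad peaks was not tested.

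**Figure D3:**
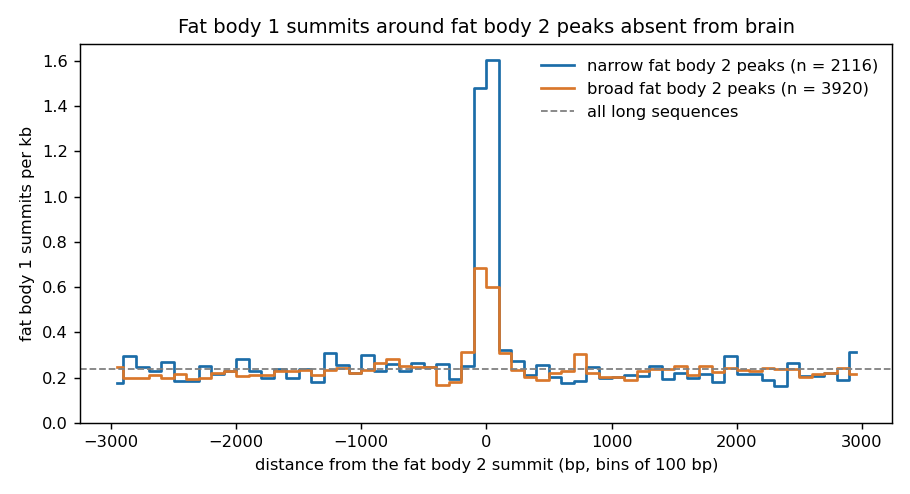
Fat body 1 summits per kb (y axis) by distance from the fat body 2 summit (x axis, bp, bins of 100 bp) for narrow (blue, n = 2116) and broad (orange, n = 3920) fat body 2 peaks on long sequences that both brain lists lack, with the rate over all long sequences as a dashed line. Narrow peaks reach 1.60 per kb beside the summit and broad peaks 0.686, and both return to about the dashed line within 300 bp.

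Presence in fat body 1 rose with the strength of narrow fat body 2 peaks, and much less with that of broad ones. Narrow peaks absent from brain were split by −log10 q into 5 equal classes. Fat body 1 was present in 16.8% (13.4 to 20.7) of the weakest class, in 31.3% (26.9 to 35.9) of the middle one and in 71.5% (67.0 to 75.7) of the strongest. For broad peaks the same shares were 22.8% (20.0 to 25.9), 30.2% (27.0 to 33.5) and 34.2% (30.9 to 37.6). Presence means any overlap of 1 bp, for which a wider peak leaves more room, and no background matched for width was taken. Among fat-body-only regions, width and fold of the fat body 2 peak had a Spearman rho of 0.572 in broad and -0.169 in narrow ones. The part of width in these shares was not tested.

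The 10 fat-body-only regions that ranked best in both fat body lists were narrow in 7 cases and broad in 3. The best lay on sequence 15 from 9780812 to 9781119, with a fold of 36.6 for fat body 1 and 23.0 for fat body 2, 165 reads piled up at the fat body 2 summit, and the same summit base in both. Its nearest brain region was 1936 bp away, and its nearest fat-body-only neighbour 148.887 kb away. On sequence 10 from 7617020 to 7617329 the folds were 28.1 and 17.9 with summits 17 bp apart, and on sequence 22 from 3789690 to 3790057 they were 30.6 and 19.8 with summits 2 bp apart. Ranks 2 to 5, on sequences 17, 21, 10 and 8, were all narrow, with fat body 1 folds of 35.6, 19.8, 28.1 and 25.2 and fat body 2 folds of up to 22.5. The broad members of this group paired a short fat body 1 peak with a long fat body 2 peak. On sequence 26 from 9797089 to 9798029 a 337 bp peak of fat body 1, 23.8-fold enriched, lay in a 941 bp peak of fat body 2, 16.6-fold enriched, with summits 7 bp apart. On sequence 15 from 12409235 to 12410171 a 161 bp peak lay in one of 937 bp, with folds of 11.6 and 21.3 and summits 17 bp apart. On sequence 9 from 10009416 to 10010539 a 155 bp peak sat across the edge of one of 1106 bp, with folds of 17.2 and 22.4 and summits 265 bp apart. None of the 10 had another fat-body-only region within 10 kb. All coordinates are 1-based positions on the sequences of the deposited lists, called by the number that ends the sequence name; the build is not given in the sources used here.

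Most fat-body-only regions stood alone along the sequences. The nearest other one was a median of 70.5 kb away (65.7 to 73.4, order-statistic 95% interval), and 214 of 2011 (10.6%, 9.33 to 12.1) had one within 10 kb. For brain-only regions, of which there are 654, the median was 189 kb and the share within 10 kb 7.68% (5.75 to 10.0). For the 4134 regions of fat body 2 alone it was 34.0 kb and 18.5% (17.3 to 19.7). For the 1075 regions in all 4 lists it was 121 kb and 6.90% (5.45 to 8.58). The classes differ in size, which bears on the distance between neighbours, so these values do not rank how clustered the classes are. Narrow regions had a neighbour of either kind within 10 kb in 11.7% of cases and broad ones in 9.87%.

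Linked at gaps of up to 10 kb, 1799 regions had no neighbour, 98 chains had 2 regions and 6 chains had 3. Of the 98 pairs, 24 joined narrow regions, 33 joined broad regions and 41 were mixed. The tightest chain of 3 spanned 6.56 kb on sequence 24 from 3556822 to 3563380, with folds of 3.76, 2.80 and 3.62 in fat body 1, at percentiles 50.1, 6.41 and 42.2 of its list. On sequence 4 from 1251018 to 1262268 lay 3 narrow regions with gaps of 5126 and 5247 bp between them. Their folds were 10.1, 13.5 and 12.7 in fat body 1 and 8.30, 10.8 and 7.39 in fat body 2, with summits of the fat body libraries 2, 19 and 47 bp apart. On sequence 11 from 2211597 to 2227000 lay 3 broad regions with fat body 1 folds of 3.28, 3.33 and 3.51. On sequence 5 from 15128196 to 15145364 the fat body 1 folds were 4.92, 3.66 and 4.03. The chains thus held weak regions and strong ones.

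A stretch of 70.8 kb on sequence 20, from 3254967 to 3325740, held 6 fat-body-only regions linked at gaps of up to 50 kb, a number that 1 other stretch reached. In each of them a single fat body 1 peak spanned the whole region. The regions were 1551, 2577, 2419, 1291, 866 and 853 bp wide in order along the sequence. Their fat body 1 folds were 4.87, 7.48, 9.06, 9.02, 9.84 and 10.4, and all 6 fat body 1 peaks ranked at percentile 97.7 or higher. Fat body 2 had folds of 3.38, 5.24, 6.02, 5.67, 5.32 and 5.49 there. Summits of the fat body libraries lay 45, 2, 50, 5, 7 and 43 bp apart. In the same order, the nearest brain region was 1811, 15441, 22368, 6687, 5533 and 620 bp away. The only 2 fat-body-only regions that held 2 fat body 2 peaks were the first and second of this stretch, and 3 of its regions are a chain at 10 kb. The first region counts as narrow by its strongest fat body 2 peak of 235 bp, and the other 5 are broad. Wide fat body 1 peaks were rare among broad regions, since fat body 1 covered at least 90% of the region in 12 of 1176. Local background was high here. In fat body 2 the background that fold and pile-up imply was 35.9, 37.8, 26.8, 12.9, 12.9 and 27.2 reads in order, against a median of 4.08 over all fat-body-only regions. Its part in the width of these peaks was not tested. This stretch was singled out after its values were seen.

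The other stretch with 6 regions, on sequence 14 from 5163066 to 5274351, mixed the kinds. Its 3 narrow regions had fat body 1 folds of 4.08, 9.13 and 16.4 and summits 26, 2 and 11 bp apart. Its 3 broad regions had folds of 3.61, 3.39 and 3.66 and summits 2, 304 and 122 bp apart.

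Brain peaks were seldom far away. The nearest region of either brain list lay a median of 3.32 kb from a fat-body-only region (3.13 to 3.53), and within 10 kb in 1802 of 2011 cases (89.6%). Another 2 regions lay on a sequence without any brain peak. Regions of fat body 2 alone had a median of 3.17 kb (3.02 to 3.31). Narrow and broad regions had medians of 3.18 and 3.43 kb, with intervals that overlap. The longer list of brain 1 set this distance, at a median of 3.93 kb, against 12.9 kb to the nearest brain 2 region. Without brain 1 the median distance to a brain peak was 13.4 kb. A brain peak within 1 kb was found for 345 regions (17.2%, 15.5 to 18.9), against 17.8% (16.7 to 19.0) for regions of fat body 2 alone. Closeness to brain peaks thus did not set the fat-body-only regions apart from peaks that only fat body 2 had.

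At the edge of the rule, 3 fat-body-only regions had a brain peak within 10 bp and 25 within 100 bp. One on sequence 22 from 2205126 to 2205771 abutted a brain peak with no base between. On the side of presence, the strongest peaks of the fat body lists overlapped by 10 bp or less in 31 regions. Where such a region held further fat body 1 peaks, those could overlap the fat body 2 peak by more. The smallest overlap was 1 bp, on sequence 24 from 7269304 to 7269878 and on sequence 25 from 9095030 to 9095425, each with a single fat body 1 peak. Just outside, 17 regions of fat body 2 alone had a fat body 1 peak within 10 bp that did not overlap them.

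The regions farthest from any brain peak on the long sequences lay on sequence 24, from 8920386 to 8921381 and from 8905549 to 8905859, at 68.2 and 64.0 kb. They are neighbours, 14526 bp apart. The second of them was narrow, with a fold of 20.6 for fat body 2 and of 4.17 for fat body 1. Next came sequence 7 from 13200109 to 13200676, at 42.5 kb, sequence 24 from 17025073 to 17026672, at 39.3 kb, and sequence 1 from 13642274 to 13643133, at 35.8 kb. In these 3 the fat body 1 folds were 3.21, 2.63 and 4.22. None of the 5 had a fat body 1 fold above 4.68, and their fat body 1 peaks stood between percentiles 22.0 and 65.0 of the list.

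Regions open in all 4 lists were much farther off, and they are far fewer. The long sequences held 2.41 of them per Mb, against 81.6 peaks of brain 1 and 25.6 of brain 2. Set size bears on the distances, so the contrast with brain regions does not describe placement. The median distance from a fat-body-only region to one open in all 4 lists was 142 kb (132 to 152). Of 2009 fat-body-only regions, 93 (4.63%, 3.75 to 5.64) had one within 10 kb. The median was 123 kb (108 to 140) for narrow and 154 kb (143 to 166) for broad regions. For brain-only regions it was 128 kb (117 to 144), and for regions of fat body 2 alone 157 kb (150 to 163). Within 50 kb of a region open in all lists lay 30.0% (26.9 to 33.3) of the narrow and 20.2% (17.9 to 22.6) of the broad regions. In this distance narrow regions were nearer to the value of brain-only regions, and broad regions nearer to that of fat body 2 alone; whether the difference holds over libraries could not be tested. Without brain 1, the median distance to a region in the 3 lists left was 50.6 kb, and without brain 2 it was 92.0 kb, since more regions meet 3 lists than 4. The nearest brain-only region was a median of 250.5 kb away.

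**Figure D4:**
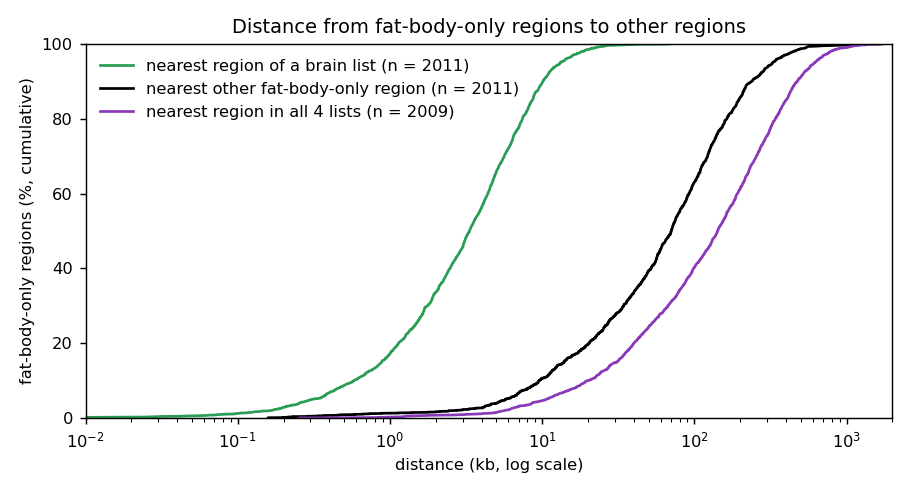
Cumulative share of fat-body-only regions (y axis, %) by distance (x axis, kb, log scale) to the nearest region of a brain list (green), the nearest other fat-body-only region (black) and the nearest region in all 4 lists (purple). The curves cross the middle at 3.32, 70.5 and 142 kb, and the sets they refer to differ in size, which bears on these distances.

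The fat-body-only regions were spread over all 28 long sequences, with 39 to 102 on each, and 4 lay on unplaced sequences. Per Mb of sequence, measured up to the last peak, there were 4.52 in all, the fewest on sequence 1 (1.89) and the most on sequence 2 (6.46), followed by sequence 20 (6.15), sequence 26 (6.02) and sequence 28 (5.95). The next fewest were on sequence 4, with 3.42. Narrow regions ranged from 1.11 per Mb on sequence 1 to 2.99 on sequence 20, and broad regions from 0.775 on sequence 1 to 4.63 on sequence 28. Sequence 28 had 14 narrow and 49 broad regions, while sequence 15, with the highest count, had 52 and 50. The mix of kinds thus differed from sequence to sequence.

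Shorter sequences had more fat-body-only regions per Mb. Over the 28 long sequences, the Spearman rho of count per Mb with length was -0.747 for all fat-body-only regions. It was -0.571 for broad and -0.392 for narrow regions. The peaks of the whole fat body 2 list followed length in the same way (-0.836), as did those of brain 2 (-0.796), whereas those of fat body 1 (-0.19) and brain 1 (0.373) did not. Among the whole lists, this trend was seen in those numbered 2, in both tissues. Its source was not tested, and all values rest on the same 28 sequences and libraries. Sequence 1 was low in every list, with 146 fat body 1 peaks per Mb against 230 to 267 elsewhere, and 18.8 fat body 2 peaks against 24.8 to 59.3. Its regions of fat body 2 alone, at 6.74 per Mb, were not the fewest, since the other sequences ranged from 6.46 to 18.2. Its brain-only regions, at 1.84 per Mb, were not low, since the other sequences ranged from 0.851 to 2.65. The part of overall peak density in these counts was not tested. Within 1 Mb of a sequence end lay 10.8% (9.43 to 12.2) of the regions, on 12.6% of the length.

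**Figure D5:**
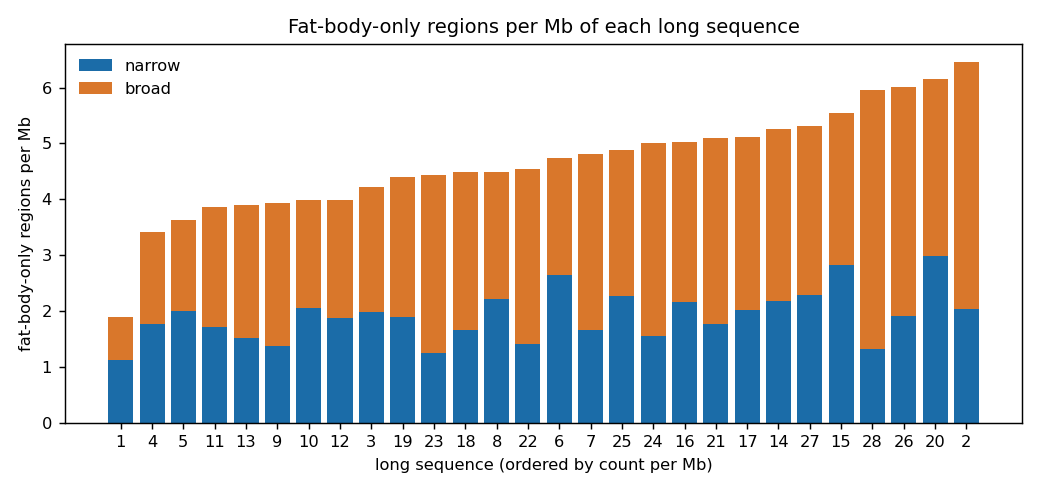
Fat-body-only regions per Mb (y axis) on each of the 28 long sequences (x axis, ordered by the total), stacked as narrow (blue) and broad (orange). Sequence 1 has 1.89 per Mb and sequence 2 has 6.46, and the broad part varies more than the narrow part.

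A fat-body-only region usually held 1 peak of fat body 1. There were 2192 such peaks in 2013 regions: 1843 regions held 1, 162 held 2, 7 held 3 and 1 held 4. Regions with 2 or more numbered 170 (8.45%, 7.27 to 9.75), of which 149 were broad, or 12.7% of the broad kind against 2.51% of the narrow kind. Neighbouring fat body 1 summits in them lay a median of 566 bp apart and never closer than 184 bp. Their median width was 1007 bp, against 736 bp for regions with a single peak, and their median fat body 1 fold was 4.15 against 4.34. The strongest fat body 1 enrichment was rarer among them, with a 90th percentile of 6.38 against 16.5, whereas in fat body 2 the 90th percentile was 17.9 against 14.6. In regions open in all 4 lists the share with 2 or more was 25.2% (22.6 to 27.9). Merging joins separate peaks under one wide peak of another list, so these counts follow the widths of the fat body 2 peaks.

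The region with 4 fat body 1 peaks lay on sequence 9 from 12011153 to 12013094 under a single 1942 bp peak of fat body 2, with a fold of 17.5 there and 4.21 at the strongest fat body 1 summit. Regions with 3 such peaks included sequence 11 from 1019035 to 1020294 and sequence 23 from 20746019 to 20747269, whose fat body 2 folds of 37.5 and 35.9 stood at percentiles 99.6 and 99.4 of the list, while the fat body 1 folds were 4.96 and 4.43. On sequence 24 from 3526215 to 3527713 and on sequence 6 from 13620900 to 13622218 the fat body 2 folds were 9.87 and 6.58. Another 3 regions tie with them at 3 peaks. Over all 8 the strongest fat body 1 peak stood between percentiles 49.7 and 91.9 of its list.

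The widest region, 3467 bp on sequence 23 from 15551796 to 15555262, was 1 fat body 1 peak with 509 reads piled up at the summit and only 3.66-fold enrichment, over a 607 bp fat body 2 peak with 1.91-fold enrichment, the lowest fat body 2 fold of all the regions. Its local background was 138 reads for fat body 1 and 75.3 for fat body 2. The next widest, on sequence 22 from 3601319 to 3603926, joined a 1005 bp fat body 1 peak to a 1612 bp fat body 2 peak through 9 shared bases, with summits 1050 bp apart and folds of 6.44 and 42.4. The 2 that follow belong to the stretch on sequence 20, and the last of the 5, on sequence 24 from 14202219 to 14204635, was a 2395 bp fat body 2 peak with a fat body 1 peak of 119 bp across its edge. The 5 widest regions thus comprised 3 spanned by 1 fat body 1 peak and 2 in which a long fat body 2 peak met a shorter fat body 1 peak at its edge.

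Without brain 1, whose peak names carry the other stage code, 2744 regions had both fat body lists and not brain 2. Of these, 51.2% were narrow, against 41.6%, and 62.3% had summits within 100 bp, against 55.9%. Of the 732 regions that brain 1 removes although brain 2 lacks them, 76.0% (72.7 to 79.0) were narrow. Of the 1766 regions in all lists but brain 1, 22.9% (20.9 to 24.9) were narrow, so the narrow share of what is left depends on which brain list does the removing. Without brain 1 the ratio of the median fat body 1 fold in narrow and broad regions was 3.20, against 2.52. Without brain 2 there were 3754 regions, 32.7% of them narrow, 48.4% with summits within 100 bp, and the ratio of folds was 1.36. Brain 2 thus moved that ratio by more than brain 1 did. With the same number of best peaks taken from every list, 743 regions were left, of which 88.7% were narrow, and the ratio was 1.57. Narrow regions had the higher fat body 1 fold and the closer summits in each of these settings, by a margin that depended on the lists.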

How the data were processed

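ATAC-seq peak lists of 4 libraries, 2 of brain and 2 of fat body, were used. The submitters' processing notes name MACS2 2.1.0, a peak caller, and also Bowtie2, Trim Galore, deepTools 3.3.0 and Picard. Their settings, the depth and the build were not given in the sources used here. The deposited lists give, per peak and library, a fold enrichment (a ratio over local background), a −log10 p and a −log10 q, a summit offset and a score that the authors left as 10 times −log10 p, or −log10 q in fat body 2.

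Peaks were merged at an overlap of 1 bp, and the peak with the best −log10 q stood for its list. Distances count the bases between edges. Pile-ups of 2 to 1000 reads were searched under a Poisson model, with a relative tolerance of 2e-05. Merging and the pile-up search were tested on simulated data. The simulated backgrounds were lower than most fat body 1 backgrounds here (median 9.25 reads), so the pile-up test does not cover those. Python 3.11.15, pandas 2.3.3 and SciPy 1.17.1 were used. Intervals cover counting only.

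The regions and measures were chosen with earlier results of these data known. Named were the 10 regions ranked highest by mean −log10 q percentile, the 5 widest, the 5 with most fat body 1 peaks, the 5 farthest from brain peaks and the 5 largest chains at 10 kb, and counts per Mb for the long sequences; further ones were added after their values were seen, as were the kinds, the rates around summits and the 50 kb chains.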

Additional observations from a re-analysis of the deposited data

How the results depend on the processing

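Of 127 values under other settings, 55 moved and 72 did not. Only the contrasts between narrow and broad regions have a direction, and it did not turn in any setting. A median or share counted as moved when it left the 95% interval of the reported value; the count of regions and both contrasts between narrow and broad regions, which have no interval, when they changed by over 1.5 times. With each list shortened to its best peaks, as many as the shortest list holds, 743 regions were left, with a median width of 358 bp, a median distance of 154494 bp to regions in all 4 lists and of 7728 bp to brain regions, 0.269% with 2 or more fat body 1 peaks, 88.7% narrow and 93.8% with summits within 100 bp; narrow exceeded broad regions by 17.2 percentage points in that last share (main value 37.1) and 1.57 times in fat body 1 fold. Merging peaks up to 200 bp apart gave 856 bp, 117988 bp, 15.05% with 2 or more fat body 1 peaks and 45.7% of summits within 100 bp. Windows of 100 bp to each side of the summits gave 249.5 bp, 193452 bp, 2516 bp to brain, 9.24% within 10 kb of another region, 0.577% with 2 or more peaks, 47.3% narrow, 75.8% of summits within 100 bp and a difference of 16.2 points. Asking for no brain peak within 1 kb gave 4229.5 bp to brain and 8.94% within 10 kb of another. Neighbours counted at 5 and 50 kb were 3.93 and 39.4%, summits within 50 and 200 bp 38.8 and 71.5%, and narrow regions 36.6 and 45.2% at limits of 400 and 600 bp. An overlap of at least 50% of the shorter peak gave 61.9% of summits within 100 bp.

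Leaving out each library in turn gave 2744 to 83174 regions, the highest without fat body 2 and 6175 without fat body 1. Median width ran from 160 to 799 bp, the distance to regions in all lists left from 48553 to 129034 bp and that to brain from 3226 to 13369.5 bp. The share within 10 kb of another ran from 14.0 to 98.0%, that with 2 or more fat body 1 peaks from 0 to 9.64%, the narrow share from 32.7 to 51.2% and summits within 100 bp from 48.4 to 62.3%, with differences of 28.7 to 41.1 points and fold ratios of 1.36 to 3.20. Values that need a missing fat body library were not computed. As a replicate block, regions open in fat body and not in brain numbered 84708 in the pair of libraries numbered 1 and 7023 in the pair numbered 2, and 2013 in both; nothing in the labels says that these numbers pair samples. Read depth is unknown, and lists of unequal length limit every count of presence or absence.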
